A study of Mus musculus with 12 samples.

Results

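The 5 channel genes described here are the pannexins *Panx1* and *Panx3* and the connexins *Gja1*, *Gjc1* and *Gjb2*. They are 5 of the 23 pannexin and connexin genes found in the files, which hold 23284 genes for sorted osteoblasts and 24346 for MC3T3-E1 cells. The family was selected on the values of *Panx3*, which was higher with PTH and with *Slpi*, so the levels of *Panx3* are given as a description without a test. The other members were measured in the same libraries but were not the reason for the choice.

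RNA-Seq was run on 12 libraries, 3 in each of 4 groups. Osteoblasts came from female Col2.3-ECFP mice, 12 weeks of age at the start, in which a fragment of the type I collagen promoter drives a cyan fluorescent protein in mature osteoblasts. The mice received vehicle (PBS) or PTH(1-34) at 40 µg/kg/day, on 5 days of each week over 3 weeks, and the skull, limb and hip bones were collected 24 h after the last injection. Cells were released with collagenase and EDTA, and the 7AAD-negative, Lin-CD45- ECFP+ fraction was sorted. Animals of both groups carried the reporter, and the gate selects cells with an active promoter, not every cell of the lineage. MC3T3-E1, a clonal osteoblastic line from mouse calvaria, was infected with an empty retrovirus (mock, pMX-IRES-Puro) or with one that carries *Slpi* (pMX-*Slpi*-IRES-Puro), and both were selected with puromycin. *Slpi* encodes a secreted inhibitor of leukocyte proteases. The methods of the study count different mice as biological replicates, but the labels tie no library to an animal or, for MC3T3-E1, to a culture, so the spread between libraries may be partly technical. In bulk samples, fewer cells of a type and less RNA per cell cannot be told apart.

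Connexins assemble into gap junctions, which join the cytoplasm of neighboring cells, and into unpaired hemichannels. Pannexins form large-pore channels in single membranes that release ATP and other small molecules. *Gja1* encodes Cx43, the main gap junction protein of osteoblasts and osteocytes, and *Gjc1* encodes Cx45, which can share junctions with it. *Panx3* is a pannexin of osteoblasts and chondrocytes that opens at the cell surface and in the endoplasmic reticulum, where it passes calcium, and *Panx1* is the widely expressed member. *Gjb2* encodes Cx26, a connexin of epithelia and the inner ear.

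The values are FPKM (fragments scaled to transcript length and to the mapped total), which correct for transcript length, so levels can be set between genes within an experiment. Libraries of sorted osteoblasts summed to 400839 to 462460 FPKM, with 10795 to 11746 genes at 1 or more, and those of MC3T3-E1 cells to 541932 to 599746. The number of reads is unknown. The steps between low values gave a depth of 0.787 to 1.402 times that of vehicle replicate 1 in sorted osteoblasts. *Slpi* itself was 386 ± 9.20 FPKM (SD, n = 3) in mock and 1975 ± 129 in *Slpi* cells, so the mock cells already expressed it.

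The labelled cell type was checked against 13 osteoblast markers. All 13 reached an FPKM of 1 in vehicle libraries. In PTH libraries 11 did, since *Col1a1* and *Col1a2*, the chains of type I collagen, were listed at 0 in all 3 of them and in vehicle replicate 3. These zeros, in cells sorted through the promoter of that collagen, are taken as failed estimates, and the values of both genes are not described further. Both stayed in the fits and in the sums used for rescaling, except in an alternative that left them out of those sums. In MC3T3-E1 cells 12 of 13 reached 1 and *Phex*, a gene of mature osteoblasts and osteocytes, stayed under it. At an adjusted p under 0.05 in limma, 2 of the 13 tested, the collagens counted, rose with PTH and none fell (6.38% and 8.85% of all genes tested). With *Slpi* 9 of the 12 tested rose and 1 fell (31.9% and 28.9% of all genes tested). The part of these differences in the *Panx3* level was not tested.

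*Panx3* was the member with the largest difference in both experiments. Vehicle libraries held *Panx3* at 3.72, 4.13 and 3.95 FPKM, and PTH libraries at 15.3, 12.96 and 11.4. Every PTH library was at least 2.77 times the highest vehicle library. The means were 3.93 ± 0.202 and 13.2 ± 1.95 (SD, n = 3), a ratio of 3.37 and a difference of 1.52 on the log2(FPKM + 1) scale used for every fold change here. On that scale *Panx3* had the difference ranked 76 from the top of 13004 genes tested.

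In MC3T3-E1 cells *Panx3* was 6.18, 6.501 and 6.51 FPKM in mock and 39.2, 43.5 and 41.7 in *Slpi* libraries. The groups were far apart, with the lowest *Slpi* library 6.02 times the highest mock library. The means were 6.39 ± 0.191 and 41.5 ± 2.14 FPKM (SD, n = 3), a ratio of 6.48 and a log2 difference of 2.52, ranked 15 from the top of 11466 genes tested. These values chose the family and support nothing further.

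**Figure D1:**
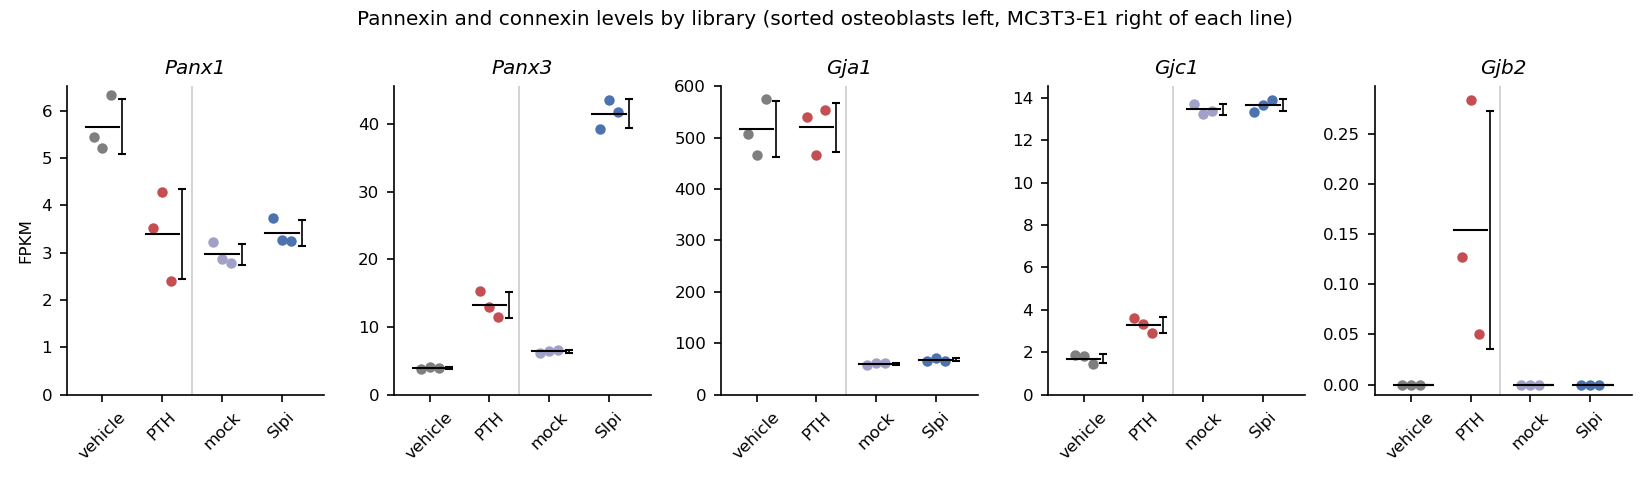
FPKM of the 5 genes (vertical axes, each starting near 0 and scaled to its gene) in the 12 libraries, grouped as vehicle, PTH, mock and Slpi along the horizontal axes. Points are libraries, lines are group means and bars are 1 SD (n = 3); Panx3 separates in both experiments, Gjc1 separates only between vehicle and PTH, and Gja1 spans 465 to 575 FPKM in sorted osteoblasts against 57.7 to 70.9 in MC3T3-E1 cells.

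*Panx1* was lower, not higher, in PTH libraries. It was 5.45, 5.21 and 6.32 FPKM in vehicle and 3.52, 4.28 and 2.39 in PTH libraries. All 3 PTH libraries were below all 3 vehicle libraries, an ordering that 20.9% of the tested genes showed. The means were 5.66 ± 0.584 and 3.40 ± 0.950 (SD, n = 3), and the log2 difference of -0.62 ± 0.19 (SE) had a 95% interval from -1.06 to -0.18. It missed the threshold over all genes in limma (adjusted p = 0.0670). Of 14 alternatives, *Panx1* passed in 1 only, without PTH replicate 2 (adjusted p = 0.0473). Its adjusted p reached 0.167 without vehicle replicate 1, and its log2 difference was -0.44 without PTH replicate 3. PTH replicate 2 is the library that holds cardiac transcripts, and their part in the *Panx1* difference was not tested.

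In MC3T3-E1 cells *Panx1* was 3.22, 2.87 and 2.79 FPKM in mock and 3.73, 3.27 and 3.25 in *Slpi* libraries. The 3 *Slpi* libraries were the higher ones, by a narrow margin, an ordering that 34.9% of the tested genes showed. The log2 difference was 0.16 ± 0.071 (SE), with a 95% interval from -0.0042 to 0.32 and a limma adjusted p of 0.0836. *Panx2*, the third pannexin and mainly a brain gene, stayed at or below 0.245 FPKM in all 12 libraries and was not tested.

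The order of the pannexin transcripts differed between the groups. *Panx3* made up 38.4% to 44.2% of the summed pannexin FPKM in vehicle libraries and 74.9% to 82.7% in PTH libraries. In MC3T3-E1 cells its share was 64.7% to 68.9% in mock and 90.8% to 92.8% in *Slpi* libraries. The ratio of *Panx3* to *Panx1* was 0.624 to 0.792 in vehicle, 3.03 to 4.79 in PTH, 1.92 to 2.33 in mock and 10.5 to 13.3 in *Slpi* libraries. In vehicle osteoblasts *Panx1* was thus the more abundant pannexin transcript, and in the other 3 groups *Panx3* was. Since *Panx3* chose the family, these shares are descriptions.

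**Figure D2:**
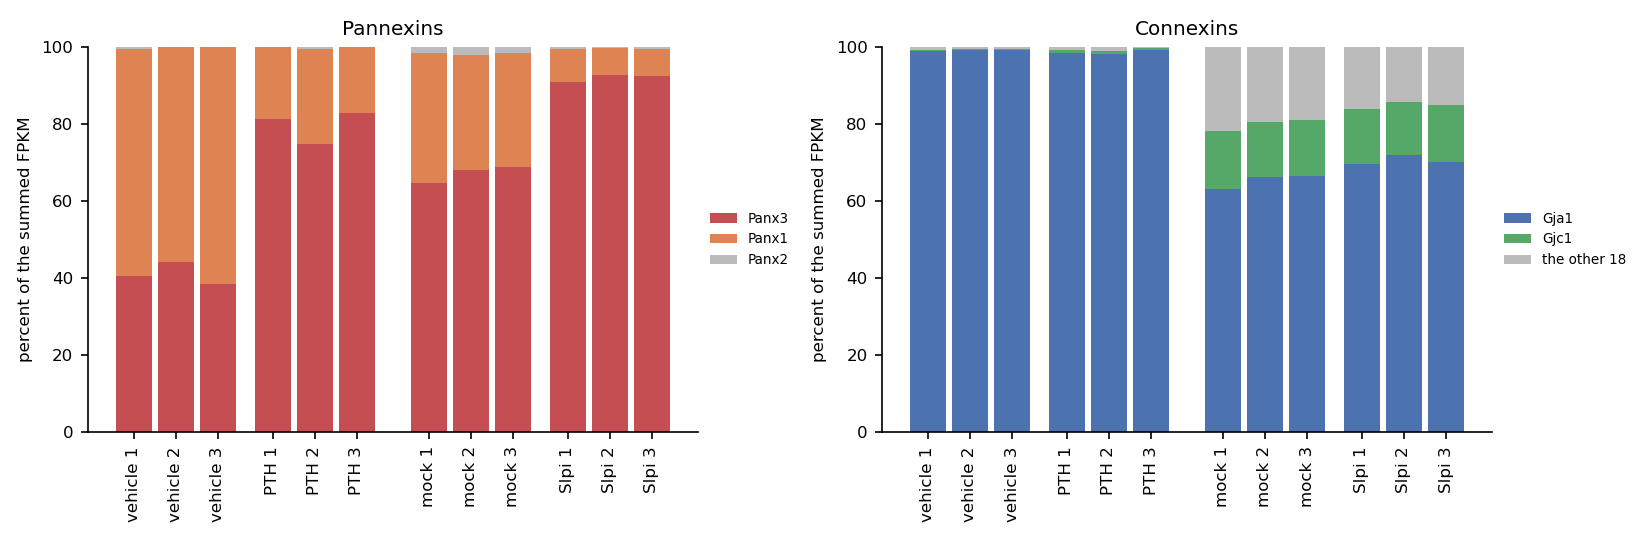
Stacked bars of the percent of summed pannexin FPKM (left) and of summed connexin FPKM (right) for each of the 12 libraries. Panx3 takes 38.4% to 44.2% of the pannexin sum in vehicle and 74.9% to 82.7% in PTH libraries, and Gja1 takes over 98% of the connexin sum in every sorted osteoblast library but 63.1% to 71.8% in MC3T3-E1 libraries.

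Among the connexins, *Gja1* was by far the most abundant. It was 508, 466 and 575 FPKM in vehicle and 540, 465 and 554 in PTH libraries. The groups overlapped almost completely. The means were 516 ± 54.7 and 520 ± 47.7 FPKM (SD, n = 3), and the log2 difference was 0.011 ± 0.12 (SE) with a limma adjusted p of 0.956. The 95% interval of the difference ran from -0.26 to 0.29, so the data allow a change of either sign within those bounds. The sign turned negative under 3 other scalings.

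With those levels *Gja1* ranked 125 from the top of 11753 genes with a mean FPKM of at least 1 in vehicle and 144 of 11524 in PTH osteoblasts. In MC3T3-E1 cells it ranked 1323 of 11174 in mock and 1203 of 11074 in *Slpi* cells. Its FPKM there was 57.7, 60.9 and 61.0 in mock and 65.3, 70.9 and 66.0 in *Slpi* libraries. Every *Slpi* library was above every mock library, as for 34.9% of the tested genes. *Gja1* rose with *Slpi* by 0.17 ± 0.042 on the log2 scale (SE, limma adjusted p = 0.00817), a ratio of means of 1.13. The call depended on scaling, since after rescaling each library to a fixed sum the log2 difference was 0.076 with an adjusted p of 0.213.

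*Gjc1* was called in sorted osteoblasts and not in MC3T3-E1 cells, and the difference between the experiments was not tested. It was 1.86, 1.80 and 1.45 FPKM in vehicle and 3.64, 3.31 and 2.90 in PTH libraries. All PTH libraries were above all vehicle libraries, as for 19.5% of the tested genes. *Gjc1* rose with PTH by 0.67 ± 0.15 on the log2 scale (SE, limma adjusted p = 0.0334), from a mean of 1.70 ± 0.221 to 3.28 ± 0.369 FPKM (SD, n = 3), a ratio of 1.93. Across the alternatives its adjusted p lay between 0.0211 and 0.106. It was above 0.05 when any one library other than PTH replicate 3 was left out, with the log2 difference between 0.60 and 0.71 in those fits. It was also above 0.05 without the filter on low genes (0.0560) and after rescaling to a fixed sum (0.0515, or 0.0821 with the collagens left out of that sum).

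In MC3T3-E1 cells *Gjc1* was higher in level and did not pass the test. It was 13.7, 13.2 and 13.4 FPKM in mock and 13.4, 13.7 and 13.9 in *Slpi* libraries, which overlapped. The log2 difference of 0.019 ± 0.038 (SE) had a 95% interval from -0.068 to 0.11 and a limma adjusted p of 0.682. Thus the interval holds differences of either sign, and it turned to -0.070 after rescaling to a fixed sum.

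*Gjb2* was close to absent. It was listed at 0 in all 3 vehicle libraries and at 0.127, 0.284 and 0.0508 FPKM in PTH libraries. Those values were 2, 5 and 1 times the smallest step for this gene, which may be a single read. A value of 3 steps, the bound taken here for a count of 0 in a single library, would read 0.160 to 0.271 FPKM in the vehicle libraries. Against each vehicle library alone, 0.127 and 0.0508 lie under that bound and 0.284 lies just above it. The 3 zeros together would set a lower bound, which was not computed. Beside *Gjb2*, the summed FPKM of 10 epithelial and keratinocyte markers was 184, 476 and 1.70 in the same PTH libraries, and 265 to 393 in vehicle libraries. The part of such cells in the *Gjb2* signal was not tested. In MC3T3-E1 cells *Gjb2* was listed at 0 in all 6 libraries.

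The order of the members by FPKM was *Gja1*, *Panx1*, *Panx3*, *Gjc1* and *Gjb2* in vehicle libraries, and no neighbors in that order overlapped. In PTH libraries it was *Gja1*, *Panx3*, *Panx1*, *Gjc1* and *Gjb2*, where *Panx1* (2.39 to 4.28 FPKM) and *Gjc1* (2.90 to 3.64) overlapped. In mock cells it was *Gja1*, *Gjc1*, *Panx3*, *Panx1* and *Gjb2*, and in *Slpi* cells *Gja1*, *Panx3*, *Gjc1*, *Panx1* and *Gjb2*, with no neighbors overlapping in either. Both experiments thus have *Gja1* first and *Gjb2* last. The levels of the experiments stand side by side only, since they were normalized apart and, per the labels, made with different library kits.

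The connexin mix differed in the same side-by-side view. *Gja1* accounted for 98.3% to 99.2% of the summed connexin FPKM in sorted osteoblasts, and *Gjc1* for 0.250% to 0.7002%. In MC3T3-E1 cells *Gja1* accounted for 63.1% to 71.8% and *Gjc1* for 13.9% to 15.03%. The ratio of *Gja1* to *Gjc1* was 260 to 397 in vehicle and 140 to 191 in PTH libraries, and 4.20 to 5.18 in MC3T3-E1 libraries.

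*Gjb5*, which encodes a connexin of skin and placenta, was 0.790, 1.08 and 0.871 FPKM in mock and 0.658, 0.508 and 0.580 in *Slpi* libraries. Every *Slpi* library was below every mock library, as for 32.2% of the tested genes. *Gjb5* entered the test only through mock replicate 2, that is through the group where it was higher, with a log2 difference of -0.27 (SE 0.091, limma adjusted p = 0.0300). It was not tested under a filter on the mean FPKM, and its adjusted p reached 0.0856 without *Slpi* replicate 2. In sorted osteoblasts *Gjb5* stayed at or below 0.834 FPKM and was not tested.

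In GENCODE M21 on mm10, *Panx1* (15002128-15045478) and *Panx3* (37659902-37669235) are both on the minus strand of chromosome 9. *Gja1* is on chromosome 10 at 56377330-56402513 (plus strand), *Gjc1* on chromosome 11 at 102799579-102819700 (minus) and *Gjb2* on chromosome 14 at 57098600-57104702 (minus). No exon of another annotated gene shares bases with the exons of the 5 members.

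*Gja3*, a connexin of the lens, passed the filter in sorted osteoblasts only through vehicle replicate 1, at 1.04 FPKM (limma adjusted p = 0.876), and was listed at 0 in all 6 MC3T3-E1 libraries. Of the 23 family genes 15 stayed under 1 FPKM in all 12 libraries.

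Counted over the family without *Panx3*, 1 of 5 genes tested was called higher with PTH and none lower at an adjusted p under 0.05. Among all 13004 genes tested 6.38% were called higher and 8.85% lower, and 1 call among 5 genes is too few to set against those shares. In MC3T3-E1 cells 1 of 6 was called higher and 3 lower with *Slpi* (*Gjb5*, tested through a mock library alone, among the latter), where 31.9% of the 11466 genes tested were called higher and 28.9% lower. All *Slpi* libraries were above all mock libraries for 2 of the 6 and below for 3, against 34.9% and 32.2% of the tested genes. The median log2 difference of the family was 0.011 with PTH and -0.087 with *Slpi*, and that of all tested genes was 0.0066 and 0.0041. Rescaling to a fixed sum moved the share of calls that were higher from 41.9% to 30.4% with PTH and from 52.5% to 35.0% with *Slpi*.

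**Figure D3:**
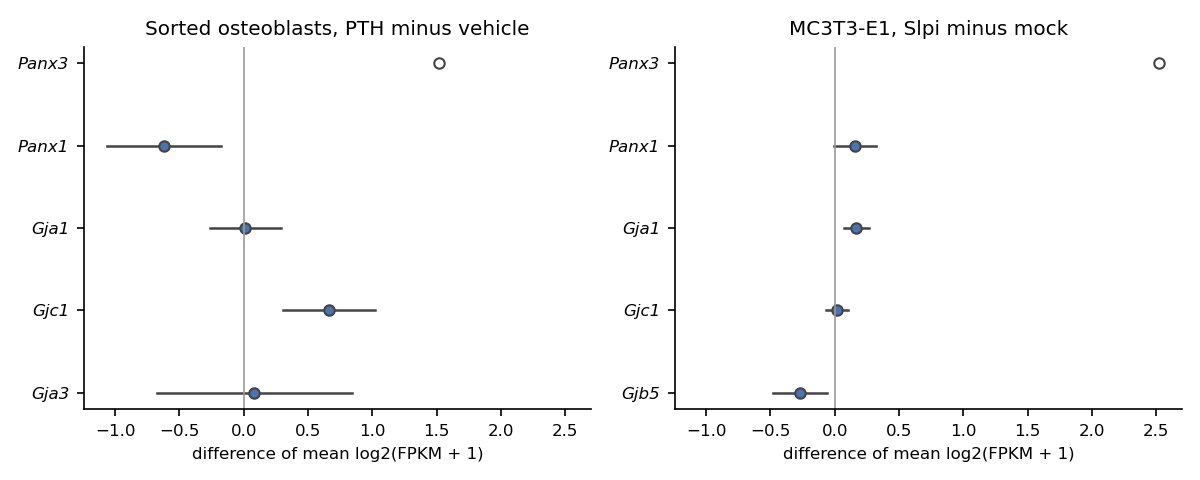
Difference of group means of log2(FPKM + 1) (horizontal axes) for those of Panx1, Panx3, Gja1, Gjc1, Gja3 and Gjb5 that were tested in sorted osteoblasts (left) and MC3T3-E1 cells (right). Other tested connexins are not shown. Filled points carry the 95% interval of the limma fit; Panx3 is an open point without an interval, because its values chose the family. The interval of Gjc1 lies above 0 with PTH, and that of Gjb5 lies below 0 with Slpi. The intervals are not adjusted for the number of genes tested, and Gjb5 passed the filter only through mock replicate 2.

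Markers of other cells differed between the osteoblast libraries, and they are given beside the members they could touch. *Panx3* is known in chondrocytes. The summed FPKM of the 11 chondrocyte markers in the files was 736 to 873 in vehicle and 901 to 1058 in PTH libraries. Of the 10 tested 3 rose and none fell, where 6.38% of all genes tested rose and 8.85% fell. Those that rose were *Sox9*, the transcription factor of chondrocytes, by 0.93 (limma adjusted p = 0.0143), *Acan* by 0.93 (adjusted p = 0.0320) and *Comp* by 0.79 (adjusted p = 0.0177). *Col10a1*, the collagen of hypertrophic chondrocytes, was 15.9, 14.8 and 22.8 FPKM in vehicle and 32.0, 25.9 and 1.298 in PTH libraries. In PTH replicate 3 *Sox9* (16.9 FPKM), *Acan* (19.9) and *Comp* (195) were above every vehicle library. In that library *Col10a1*, *Hapln1* (5.84) and *Ihh* (0.549) were below every vehicle library. *Col9a1*, *Col9a2*, *Matn1* and *Matn3* were within the vehicle range there. *Col2a1*, the largest part of the sum, was 566 to 676 FPKM in vehicle and 541 to 686 in PTH libraries. It was not called with PTH (limma adjusted p = 0.87). In MC3T3-E1 cells 3 of the 5 chondrocyte markers tested rose with *Slpi* and 1 fell, where 31.9% of all genes tested rose and 28.9% fell. Those that rose were *Hapln1* by 0.93 (limma adjusted p = 1.54e-05), *Matn3* by 0.50 (adjusted p = 0.00167, tested through one *Slpi* library alone) and *Col2a1* by 0.17 (adjusted p = 0.0490). *Sox9* fell by 0.74 (adjusted p = 5.37e-06), *Acan* was listed at 0 in all 6 libraries and *Col10a1* stayed under 0.1 FPKM. The part of chondrocytes in the *Panx3* level was not tested.

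*Gja1* is also the main connexin of heart muscle. The 13 cardiac and striated muscle markers summed to 12.6 to 24.8 FPKM in vehicle libraries and to 12.6, 3914 and 1.52 in PTH libraries. The library with 3914, PTH replicate 2, had the lowest *Gja1* of its group, 465 FPKM, and without it the log2 difference of *Gja1* was 0.089 (limma adjusted p = 0.608). Markers of T and NK cells summed to 97.3 to 158 FPKM in vehicle and 1.08 to 21.0 in PTH libraries. Of the 7 tested 5 fell and none rose, where 8.85% of all genes tested fell and 6.38% rose. Among those that fell, *Cd3d* and *Xcl1* were under 1 FPKM in every PTH library. They entered the test only through the vehicle group, where they were higher. Neutrophil markers summed to 366 to 456 in vehicle and 683 to 2304 in PTH libraries. Of the 10 tested 6 rose and none fell (6.38% and 8.85% of all genes tested). Megakaryocyte markers summed to 3.68 to 7.13 in vehicle and to 188, 151 and 6.47 in PTH libraries. *Panx3* was at 15.3, 12.96 and 11.4 FPKM across those 3 PTH libraries. Endothelial markers summed to 5.98 to 7.498 in vehicle and 1.46 to 10.1 in PTH libraries. The 8 macrophage and osteoclast markers in the files summed to 182 to 204 in vehicle and 321 to 356 in PTH libraries. Of the 6 tested 1 rose and none fell (6.38% and 8.85% of all genes tested). It was the protease gene *Ctsk*, which rose by 0.77 (limma adjusted p = 0.0164). *Ctsk* made up most of that sum, with means of 143 FPKM in vehicle and 245 in PTH libraries. The osteoblastic MC3T3-E1 cells also held it, at means of 79.6 in mock and 79.3 in *Slpi* libraries, and it was not called there (limma adjusted p = 0.908). The part of the cell types behind these lists in the members' values was not tested.

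**Figure D4:**
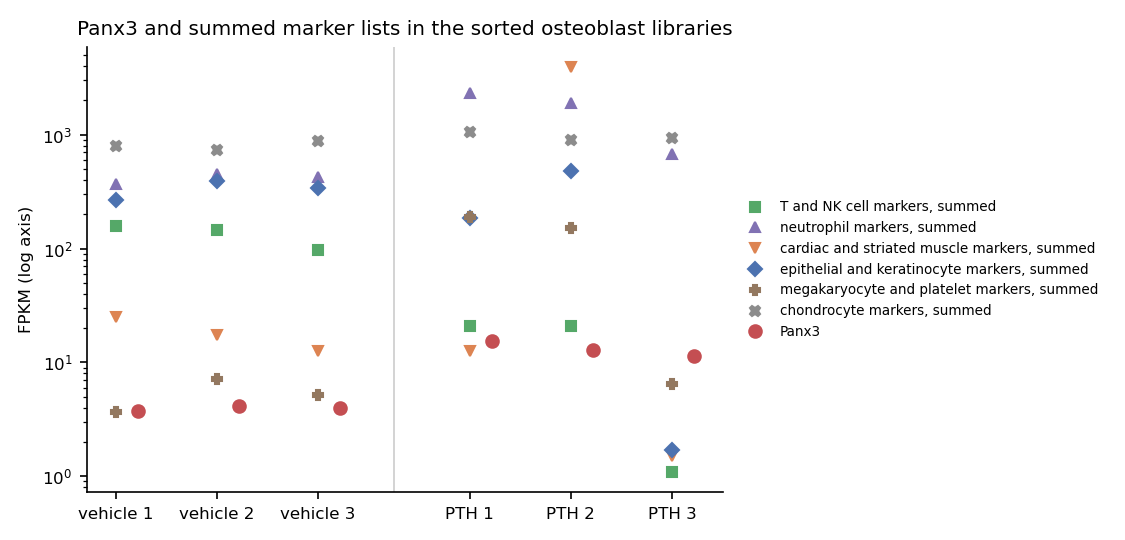
FPKM on a log axis in the 6 sorted osteoblast libraries, for Panx3 (circles) and for the sums of 6 marker lists. T and NK cell markers are lower in all PTH libraries, cardiac markers reach 3914 in PTH replicate 2, epithelial markers drop to 1.70 in PTH replicate 3, and Panx3 lies between 11.4 and 15.3 in all 3 PTH libraries.

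ATP released through such channels acts on P2X and P2Y receptors, and its breakdown product adenosine acts on its own receptors. In sorted osteoblasts 2 of 6 ATP receptors tested fell with PTH and none rose, where 8.85% of all genes tested fell and 6.38% rose. *P2rx7*, the ion channel receptor often placed beside pannexins, was 8.62, 9.17 and 6.09 FPKM in vehicle and 1.245, 1.93 and 0.803 in PTH libraries. It fell by 1.96 on the log2 scale (SE 0.23, limma adjusted p = 0.0133). *P2ry14*, a receptor for UDP-glucose, fell by 1.46 (adjusted p = 0.0174), and *Adora2a*, the only adenosine receptor tested, fell by 1.14 (adjusted p = 0.0199). These 2 genes were under 1 FPKM in every PTH library and entered the test only through the vehicle group, where they were higher. The Lin-CD45- gate should remove T cells. T cells carry *P2rx7* and *Adora2a* too, and the T cell gene *Lck* was 16.3, 13.7 and 9.82 FPKM in vehicle and 1.499, 1.74 and 0.239 in PTH libraries. The part of T cells in these falls was not tested. Without vehicle replicate 1 or 2 the adjusted p of these 3 genes lay between 0.0734 and 0.0926.

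In MC3T3-E1 cells, where T and NK markers summed to at most 0.150 FPKM, *P2rx7* was 9.23, 9.17 and 7.74 in mock and 9.12, 8.70 and 8.14 in *Slpi* libraries. The groups overlapped and the gene was not called (limma adjusted p = 0.943). Of the 6 ATP receptors tested, 3 fell and 1 rose with *Slpi*, where 28.9% of all genes tested fell and 31.9% rose. *P2rx4*, a channel of the plasma membrane and lysosomes, fell by 0.59 from a mean of 32.4 to 21.2 FPKM (limma adjusted p = 1.17e-05), *P2rx6* fell by 0.78 (adjusted p = 6.33e-05) and *P2rx5* fell by 0.26 (adjusted p = 0.0230, above 0.05 in 4 of 14 alternatives). *P2ry1*, a receptor for ADP, rose by 0.45 (adjusted p = 0.00416). No adenosine receptor reached an FPKM of 1 in these cells.

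Enzymes that degrade extracellular nucleotides were tested with the vesicular nucleotide transporter *Slc17a9*. With PTH 2 of 9 rose and none fell (6.38% and 8.85% of all genes tested). *Nt5e*, the ectoenzyme CD73 that makes adenosine from AMP, was 17.8, 19.1 and 18.3 FPKM in vehicle and 29.2, 29.4 and 25.0 in PTH libraries, a rise of 0.57 on the log2 scale (SE 0.11, limma adjusted p = 0.0210, above 0.05 in 4 of 14 alternatives). *Alpl*, tissue-nonspecific alkaline phosphatase, rose by 0.60 (adjusted p = 0.0398), and its adjusted p was above 0.05 in 8 of 14 alternatives. With *Slpi* 3 of 4 rose and 1 fell (31.9% and 28.9% of all genes tested). *Alpl* was 54.6, 50.4 and 52.8 FPKM in mock and 180, 175 and 168 in *Slpi* libraries, a rise of 1.71 (SE 0.040, limma adjusted p = 6.36e-08). *Nt5e* rose by 0.93 from a mean of 0.786 to 2.41 FPKM (adjusted p = 5.82e-05), tested only through the *Slpi* libraries since it was under 1 FPKM in every mock library, and *Slc17a9* rose by 0.56 (adjusted p = 0.000265). *Entpd3*, an ectonucleoside triphosphate diphosphohydrolase, fell by 1.27, from a mean of 76.9 to 31.3 FPKM (adjusted p = 1.04e-06). *Slc17a9* with PTH was 9.75, 8.89 and 12.3 FPKM in vehicle and 15.5, 13.6 and 20.02 in PTH libraries, without passing the threshold (adjusted p = 0.0578).

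The LRRC8 and CALHM genes encode other large-pore channels. None of the 5 tested was called with PTH, where 6.38% of all genes tested rose and 8.85% fell. With *Slpi* 3 of 6 fell and none rose, beside 28.9% and 31.9% of all genes tested. The volume-regulated anion channel subunits *Lrrc8d* and *Lrrc8c* fell by 0.54 and 0.50 on the log2 scale (limma adjusted p = 3.28e-05 and 4.15e-05), and *Calhm2* fell by 0.22 (adjusted p = 0.00120).

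Of the calcium store genes, to which *Panx3* is linked through the endoplasmic reticulum, 1 of 11 rose and 1 fell with PTH (6.38% and 8.85% of all genes tested). *Stim2*, a sensor of store calcium, rose by 0.69 (limma adjusted p = 0.0316) and *Itpr3*, an inositol trisphosphate receptor, fell by 0.76 (adjusted p = 0.0412). The adjusted p was above 0.05 in 5 of 14 alternatives for *Stim2* and in 7 of 14 for *Itpr3*. With *Slpi* 1 of 9 rose and 6 fell (31.9% and 28.9% of all genes tested), and the 4 with the smallest p were *Orai2*, *Orai1*, *Stim2* and *Itpr2*, which fell by 0.33, 0.36, 0.25 and 0.32. The difference between the experiments was not tested.

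Among 12 partners of gap junctions and adherens junctions, 1 rose with PTH and none fell (6.38% and 8.85% of all genes tested). *Cdh2*, N-cadherin, was 68.3, 59.4 and 74.3 FPKM in vehicle and 95.9, 90.7 and 121 in PTH libraries, a rise of 0.59 on the log2 scale (SE 0.14, limma adjusted p = 0.0371, above 0.05 in 9 of 14 alternatives). With *Slpi* 1 of 11 rose and 9 fell (31.9% and 28.9% of all genes tested). The one that rose was *Ctnnb1*, beta-catenin, by 0.26 (limma adjusted p = 0.000223). *Cav1*, caveolin-1, fell by 0.69 from a mean of 128 to 79.4 FPKM (adjusted p = 1.72e-06), *Dbn1*, a Cx43-binding actin protein, by 0.48 (adjusted p = 1.89e-05), *Cdh11*, the osteoblast cadherin, by 0.37 (adjusted p = 4.50e-05) and *Ctnnd1*, p120 catenin, by 0.33 (adjusted p = 6.88e-05). *Gja1* was higher in the same *Slpi* cells by the 0.17 given above. The median log2 difference of the partners tested was 0.34 with PTH and -0.25 with *Slpi*.

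The genes whose pattern over the 12 libraries lay nearest to that of *Panx3* were *Wnt7b*, *Wif1*, *Dlx3*, *Phospho1* and *Slc8a3*, out of 10094 compared. Likeness was the root mean square difference of log2(FPKM + 1), each library taken relative to its control mean, and it was 0.34 for *Wnt7b*, 0.50 for *Wif1*, 0.58 for *Dlx3*, 0.62 for *Phospho1* and 0.62 for *Slc8a3*. All of these but *Wif1* were under 1 FPKM in every mock library and were compared through *Slpi* libraries alone, so their likeness depends on the added 1. Their ratios of means with *Slpi* were 37.8 for *Wnt7b*, 13.3 for *Dlx3*, 29.1 for *Phospho1* and 14.6 for *Slc8a3*, against 6.48 for *Panx3*. *Wnt7b*, a Wnt ligand, was 1.61, 1.17 and 2.58 FPKM in vehicle, 6.42, 6.59 and 8.95 in PTH, 0.077, 0.106 and 0.097 in mock and 3.65, 3.86 and 3.07 in *Slpi* libraries. Its level was thus below that of *Panx3* in all 12 libraries. *Wif1*, a secreted Wnt inhibitor, was 62.7 to 82.6 FPKM in vehicle, 146 to 194 in PTH, 25.3 to 27.6 in mock and 80.3 to 89.5 in *Slpi* libraries. *Dlx3*, a homeobox factor, and *Phospho1*, a phosphatase of matrix mineralization, had smaller differences than *Panx3* with PTH, 0.47 and 0.42, beside 2.38 and 2.92 with *Slpi*. *Slc8a3*, a sodium-calcium exchanger, had 0.59 and 1.85. These genes were picked for their likeness, so they carry no test.

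**Figure D5:**
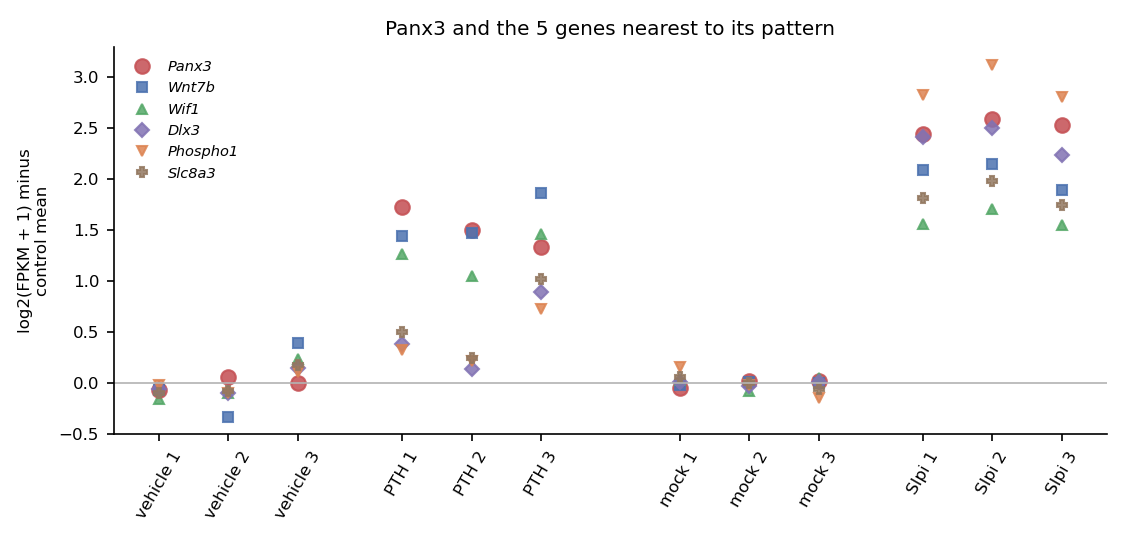
log2(FPKM + 1) minus the mean of the control group of the same experiment (vertical axis) for Panx3 and the 5 genes nearest to its pattern, in the 12 libraries (horizontal axis). Wnt7b and Wif1 lie near Panx3 in the PTH libraries, while Dlx3, Phospho1 and Slc8a3 lie below it there and scatter around it in the Slpi libraries.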

How the data were processed

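The authors deposited FPKM per gene for each library. Reads were single-end and, per the labels and methods, were mapped to mm10 with TopHat2 2.0.13, Bowtie2 2.2.3 and SAMtools 0.1.19, and FPKM came from Cuffnorm of Cufflinks 2.2.1. The annotation and scaling option are not given in the sources used here. FPKM hold no counts, so count tests could not be used. Each experiment was fitted alone with limma 3.58.1 (R 4.3.3, eBayes with a trend) on log2(FPKM + 1), over the 13004 and 11466 genes that reached an FPKM of 1 in some library of the experiment, with Benjamini-Hochberg adjustment and a threshold of 0.05. The fit was tested on simulated data. Relative depth was read from ratios of low FPKM. Python 3.11.15 and pandas 2.3.3 did the rest. The members and gene lists were chosen with earlier results of these data known. Genes named are the 5 members (*Panx3* without p), other pannexins and connexins that reached an FPKM of 1, up to 4 called genes per list with the smallest p, the 5 genes most like *Panx3*, and defining markers of cell types in which a member is known. *Phex*, *Ctnnb1*, *Ctsk*, *Ihh*, *Matn1*, *Col9a1*, *Col9a2*, *Cd3d* and *Xcl1* were named after their values were seen. Some family genes that reached this level are counted but not reported here by name.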

Additional observations from a re-analysis of the deposited data

How the results depend on the processing

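Each fit was repeated with the replicate number as a block, without the filter, with a filter on the mean FPKM (at least 1), with a pseudocount of 0.1, after rescaling to a fixed sum (TPM) or quantile normalization, without the trend, without each library and, chosen after seeing the data, TPM without *Col1a1* and *Col1a2*. The single family gene called with PTH (*Gjc1*) fell to a count of 0 without a filter, under TPM and under TPM without the collagens, and the count was 0 to 1 with a library left out. It was 0 without vehicle replicate 1, 2 or 3 or PTH replicate 1, and over all genes the calls then fell from 1981 to 1, 0, 1402 and 577. Without PTH replicate 2 the single call was *Panx1*. The count with *Slpi* was 3 to 6 throughout. *Gja1* with PTH changed sign to -0.045 under TPM, -0.27 under quantile normalization and -0.17 under TPM without the collagens, which moved the median of all genes by -0.15. It also did so without vehicle replicate 2 (-0.060), PTH replicate 1 (-0.019) and PTH replicate 3 (-0.037), in a range from -0.060 to 0.091 with a library left out. *Gjc1* with *Slpi* changed sign to -0.070 under TPM and -0.071 without the collagens. The log2 difference of *Panx3* stayed between 1.42 and 1.72 with PTH and between 2.49 and 2.68 with *Slpi*. TPM without the collagens left 20.1% of all PTH calls higher, against 41.9% in the main fit. The cause of these changes was not tested.

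Whether replicate numbers pair the samples was not tested. In sorted osteoblasts deviations of same-numbered libraries correlated at 0.029, 0.074 and 0.10, and those of differently numbered libraries at -0.116 to 0.069. In MC3T3-E1 cells the values were 0.039, -0.052 and -0.0003, against -0.099 to 0.105. A block on the number gave 2262 calls over all genes with PTH, against 1981 in the main fit. With the number as a block the family counts were 1 with PTH and 4 with *Slpi*, *Panx1* with *Slpi* had an adjusted p of 0.0457 and *Gjb5* one of 0.0566. Low genes such as *Gjb2* were limited by depth, which FPKM do not give.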
